A study of Mus musculus with 24 samples.

Results

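The aminoacyl-tRNA synthetases were described in 24 single BFU-E (burst-forming units-erythroid), an early stage of progenitor on the way to red cells. Members were the gene rows whose symbol in the GENCODE M21 annotation was on a list of 35 synthetase genes, of which 20 encode cytosolic and 15 mitochondrial enzymes. All 35 were found, among 49585 gene rows. The rule that picks the rows uses no value measured in these cells, though the list was proposed with earlier results of these data known.

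Each synthetase joins an amino acid to the tRNAs that carry its codons, so the family sets which residue the ribosome adds for a codon. Cytosolic and mitochondrial ribosomes draw on separate sets of charged tRNAs, and most amino acids have a separate nuclear gene for each compartment. Gars (glycine) and Kars (lysine) are exceptions, since each makes a cytosolic and a mitochondrial form. Eprs charges both glutamate and proline. Several cytosolic enzymes sit together in the multisynthetase complex, held by the scaffold proteins Aimp1, Aimp2 and Eef1e1. Erythroid progenitors grow and divide fast before they fill with haemoglobin, and both need charged tRNA.

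The cells came from fetal liver of C57/Bl6J mice at embryonic day 14.5. Cells carrying lineage antigens, Sca-1, CD16/32 or CD41 were removed with magnetic beads, and the rest were sorted singly into plate wells by flow cytometry after staining of CD117, CD71 and CD24. There was 1 group, with no second condition, and cells are numbered 1 to 24 as in their titles. No embryo is named for any cell, so the group counted as 1 sample, no p-value was made from cells, and SD and range describe the spread among these cells only.

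Smart-seq2 was used, which copies polyadenylated RNA along its length and carries no molecular identifiers. Totals ran from 876983 counts in cell 23 to 2155010 in cell 18, and 4767 to 7349 genes reached 5 counts in a cell, the threshold for detection used throughout. Counts were scaled to 1000000 per cell (CPM), and where a gene had a count of 0 its level may still be up to 3 counts, or 1.39 to 3.42 CPM by cell. These limits cover counting error only, because PCR copies are not independent molecules.

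Of 10 erythroid regulators the 3 highest were Klf1, Lmo2 and Myb, and each of the 24 cells held at least 3 of the 10 above 10 CPM. Kit, Myb and Nfe2 met this in every cell by themselves, with lowest values of 71.4, 95.7 and 23.6 CPM. The count is therefore no check of the erythroid label, and by the same count 12 cells held 3 megakaryocyte genes. In 5 cells (1, 9, 19, 23 and 24) Klf1, an erythroid transcription factor, was under 10 CPM. Gata1 was at 2.48, 2.85, 0, 886 and 0 CPM in these cells, in the same order. Markers of other lineages stood high in single cells. The 8 myeloid genes, led by Mpo, Prtn3 and Ctsg, summed to 8901 CPM in cell 1, with a median of 34.6 over the cells, and the 9 hepatocyte genes, led by Afp, Alb and Apoa2, to 1360 in cell 10. Megakaryocyte genes (F2r and Itga2b among them) had a median sum of 280.7 CPM and reached 1755 in cell 12. Of the same list, Pf4 and Ppbp were at 0 in all cells and Itgb3 was detected in 1 cell. Macrophage genes reached 462 CPM in cell 1, all of it Csf1r, while Cd68 peaked in cell 12 at 115 CPM. Mast cell genes reached 887 CPM in cell 24, all of it Cpa3, while Hdc peaked in cell 6 at 316 CPM. Adgre1, C1qa, C1qb, C1qc, Vcam1 and Mrc1 of the macrophage list were at 0 in all cells. So were Elane and Ly6c2 of the myeloid list, and Ms4a2, Fcer1a and Gzmb of the mast cell list. Both lymphoid genes (Rag1, Il7r, with Ebf1 lower) and the endothelial gene Pecam1 peaked in cell 19, at sums of 430 and 457 CPM, and Col1a1 was the only other endothelial or stromal marker above 0.

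RefSeq promoters (GRCm38.p6, from 250 bases before to 50 after the start) were matched for 26 of the 35 members, 12 cytosolic and 14 mitochondrial. Cars, Hars, Hars2, Lars, Mars, Nars, Rars, Vars and Wars were not matched. The letters TGATGNAA are the core of the composite element bound by ATF4, the transcription factor of the amino acid and stress response. They occurred on either strand for 5 of the 12 cytosolic genes (Aars, Gars, Iars, Tars and Yars) and for 0 of the 14 mitochondrial genes. Of 32851 promoters of the same length, 3.97% held them. A gene was counted if any of its promoters held the letters, while the share over all is per promoter. The units are thus unlike, here and for the other motifs. The stretches around these matches are shown because this is the motif, of the 5 searched, whose counts differ most between the compartments. Each runs 5′ to 3′ on the gene's own strand, with the match in capitals, and stops within 30 bases after the start. Aars holds a pair of matches.
Aars, chr8:111033685-111033782, plus strand: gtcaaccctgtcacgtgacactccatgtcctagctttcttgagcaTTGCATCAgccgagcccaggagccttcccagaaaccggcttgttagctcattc
Aars, chr8:111033806-111033871, plus strand: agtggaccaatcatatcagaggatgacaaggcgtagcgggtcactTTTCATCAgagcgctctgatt
Gars, chr6:55037926-55038023, plus strand: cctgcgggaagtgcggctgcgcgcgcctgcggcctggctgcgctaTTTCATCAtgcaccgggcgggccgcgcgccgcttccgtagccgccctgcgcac
Iars, chr13:49682092-49682159, plus strand: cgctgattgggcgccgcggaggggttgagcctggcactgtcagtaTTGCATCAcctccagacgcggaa
Tars, chr15:11399629-11399718, minus strand: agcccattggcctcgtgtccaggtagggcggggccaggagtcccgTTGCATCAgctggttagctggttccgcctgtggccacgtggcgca
Yars, chr4:129189861-129189932, plus strand: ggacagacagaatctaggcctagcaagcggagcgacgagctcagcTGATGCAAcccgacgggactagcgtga
In Aars, Gars, Iars and Tars the core lies on the opposite strand, so it is printed as its reverse complement. In Yars it lies on the gene's strand. A match is a description of these letters and not a bound site.

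Other motifs were spread more evenly. CACGTG, the E-box bound by MYC with its partner MAX, occurred for 4 of 12 cytosolic genes (Aars, Farsb, Iars, Tars) and 1 of 14 mitochondrial genes (Ears2). It was in 7.15% of all promoters. The E-boxes of Aars and Tars can be seen in lower case in the first Aars stretch and in the Tars stretch above. CCGGAAG, the core bound by ETS factors and GABPA, occurred for 4 cytosolic (Farsa, Gars, Kars, Sars) and 4 mitochondrial genes (Cars2, Mars2, Rars2, Sars2), beside 8.86% of all promoters. GCGCATG, a part of the NRF1 element, occurred for 0 cytosolic and 3 mitochondrial genes (Rars2, Vars2, Wars2), beside 3.91% of all promoters. AGATAA, the GATA core, occurred for 1 cytosolic (Farsb) and 2 mitochondrial genes (Aars2, Sars2), beside 11.2% of all promoters.

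Synthetase transcripts made up 0.651% ± 0.130 of counts (mean ± SD over 24 cells), from 0.350% in cell 19 to 0.885% in cell 2. All 20 cytosolic members and 14 of the 15 mitochondrial members were detected in at least 12 cells, against 12% of all gene rows. Wars2, the mitochondrial tryptophan enzyme, was the exception, with 11 cells. Detection in all 24 cells held for 9 cytosolic members (Dars, Eprs, Hars, Kars, Lars, Nars, Qars, Vars, Wars) and for 1 mitochondrial member, the leucine enzyme Lars2, against 2.48% of gene rows. A cell held 21 to 34 of the 35 members, with a median of 31. Cell 2 held the most and lacked only Mars2, and cell 22 held the fewest.

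Levels were compared between genes as CPM per kb of exon, because a longer transcript yields more reads. On this scale the cytosolic members had a median of 58.5 CPM per kb (14.5 for Aars to 119 for Gars) and the mitochondrial members 11.9 (1.82 for Vars2 to 44.0 for Rars2). Of the 20 cytosolic members, 11 stood above the highest mitochondrial member, and 6 mitochondrial members stood above the lowest cytosolic one. The 2 compartments thus overlapped in level, though their medians lay far apart. With the longest annotated transcript in place of all exons merged, 12 cytosolic members stood above the highest mitochondrial one.

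**Figure D1:**
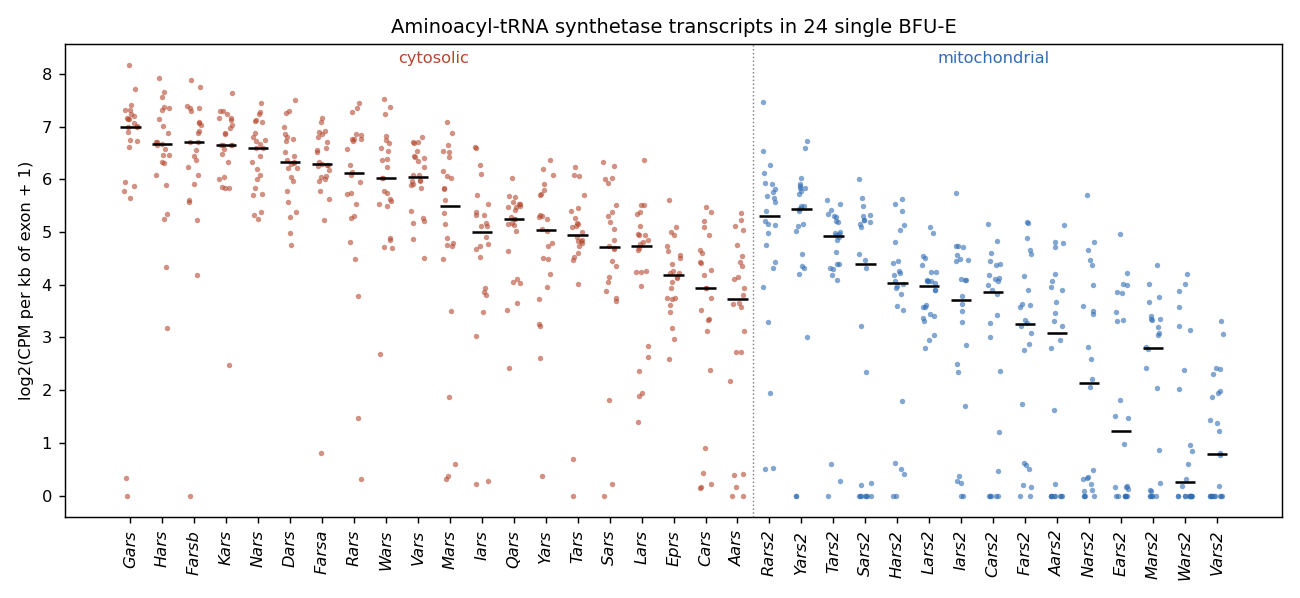
Level of each synthetase gene in each of 24 cells, as log2(CPM per kb of exon + 1), with cytosolic genes at left in red and mitochondrial genes at right in blue, each ordered by mean level. Points are cells and black lines are medians; most cytosolic genes lie above most mitochondrial genes, and points at the base are cells with no or almost no counts.

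The highest cytosolic level belonged to the dual-targeted glycine enzyme Gars (ENSMUSG00000029777, GRCm38 chr6:55038007-55079500), at 119 ± 62.6 CPM per kb. In CPM it ran from 0 in cell 22 to 889 in cell 18, with a median of 397, and it was detected in 22 cells. Cells 19 and 22 alone lay under the detection threshold, and the lowest of the other cells, cell 23, was at 152.8 CPM. The histidine enzyme Hars followed at 107 ± 58.1 CPM per kb, from 19.8 CPM in cell 21 through a median of 246 to 591 in cell 4, and was present in every cell. Its exons share 195 bases with those of the mitochondrial histidine gene Hars2, its head-to-head neighbour, and without strand the reads over those bases cannot be told apart.

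Phenylalanine is charged in the cytosol by an enzyme of alpha and beta subunits, encoded by Farsa and Farsb. Farsb (ENSMUSG00000026245, chr1:78417975-78488897) came next at 106 ± 59.0 CPM per kb, from 0 CPM in cell 19 through a median of 272 to 616 in cell 13. Farsa (ENSMUSG00000003808, chr8:84856989-84869257) was at 82.3 ± 32.3 CPM per kb, from 3.42 CPM in cell 23 through a median of 349.8 to 642 in cell 21. The subunits did not move in step: the ratio of Farsa to Farsb per kb had a median of 0.779 and ran from 0.0162 in cell 23 to 4.65 in cell 3, with cell 19 left out because Farsb was at 0 there. Cells 19 and 23 were thus each low in a different subunit.

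The lysine enzyme Kars (ENSMUSG00000031948, chr8:111993443-112011323), the other dual-targeted member and part of the multisynthetase complex, was at 106 ± 43.1 CPM per kb. It was detected in 24 cells, from 20.3 CPM in cell 19 through a median of 447 to 879 in cell 1. By longest transcript it was the highest cytosolic member, at 195 CPM per kb, ahead of Dars at 172 and Gars at 156. The asparagine enzyme Nars stood at 94.3 ± 39.8 CPM per kb with a CV (SD over mean) of 0.422, from 160 CPM in cell 24 through 416 to 760 in cell 4. The aspartate enzyme Dars, at 85.7 ± 40.2 CPM per kb, ran from 113 CPM in cell 12 through 344 to 784 in cell 2. Neither Nars nor Dars was near 0 in any cell.

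The order below these genes was Rars (arginine, 75.2 CPM per kb), Wars (tryptophan, 74.0), Vars (valine, 67.3), Mars (methionine, 49.8), Iars (isoleucine, 34.9), Qars (glutamine, 34.1), Yars (tyrosine, 34.0), Tars (threonine, 33.1), Sars (serine, 31.3) and Lars (leucine, 24.8). The lowest were Eprs, Cars and Aars. Eprs was at 18.8 ± 9.74 CPM per kb and was present in every cell, from 90.4 CPM in cell 22 through 311 to 869 in cell 4. Its place depends on the length used, since its merged exons span 18.1 kb and its longest transcript 5.64 kb, and by the latter it rose to 60.5 CPM per kb, rank 13 of 20. Cars (cysteine) was at 16.3 ± 13.2 CPM per kb, from 0.736 CPM in cell 12 through 94.3 to 284 in cell 4. Aars (alanine) was at 14.5 ± 12.3 CPM per kb, from 0 CPM through 114 to 371 in cell 12, with 2 cells at 0, and Aars and Cars were each detected in 20 cells. The exons of Aars share 1403 bases with those of Exosc6 and Gm24103, so its level is uncertain. Aars and Cars remained the 2 lowest by longest transcript. In all 19 steps of the cytosolic order, neighbours differed by less than the larger of their SDs.

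The multisynthetase complex spanned high and low members. Its 8 catalytic members (Dars, Eprs, Iars, Kars, Lars, Mars, Qars, Rars) had a median of 42.4 CPM per kb, against 70.6 for the 12 cytosolic members outside it. By longest transcript these medians were 66.8 and 89.9. Iars, Mars and Rars, all in the complex, fell to 1 count in their lowest cell. Low cells were not particular to the complex: all 8 of its members were above 0 in every cell, against 7 of the 12 outside it. Enzymes of class II, one of the pair of unrelated folds in this family, had a higher cytosolic median (10 members, 90.0 CPM per kb) than those of class I (9 members, 34.9), with Eprs, which carries both folds, in neither. By longest transcript these were 134 and 69.4. In the mitochondrial set the medians were 14.2 for 6 class II and 11.9 for 9 class I members, and the order turned by longest transcript, with 20.5 and 21.98.

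The mitochondrial order was led by Rars2, Yars2, Tars2 and Sars2. By longest transcript Lars2, whose merged exons span 11.1 kb and longest transcript 3.89 kb, stood at 42.9 CPM per kb, above Sars2 at 35.9, and Tars2 stood above Yars2. Rars2 (arginine, ENSMUSG00000028292, chr4:34614957-34660167) was at 44.0 ± 37.1 CPM per kb, from 1.14 CPM in cell 23 through 107 to 487 in cell 22. Cell 22 stood well above the next, cell 4 at 254.5 CPM. Yars2 (tyrosine) was at 41.6 ± 26.0 CPM per kb, from 0 CPM in cells 6 and 19 through 133 to 329 in cell 13. Tars2 (threonine) was at 26.5 ± 13.5 CPM per kb, from 0 CPM in cell 22 through 203 to 333 in cell 11, and had the second lowest CV of the set, 0.510. Sars2 (serine) was at 20.2 ± 19.95 CPM per kb and was at 0 in 7 cells, with a median of 66.3 CPM and a maximum of 209 in cell 8.

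Below them came Hars2 (17.5 CPM per kb), Lars2 (15.1), Iars2 (13.5), Cars2 (11.9), Fars2 (10.9), Aars2 (9.53), Nars2 (8.70) and Ears2 (5.88). Lars2 was the steadiest mitochondrial member, with no cell under 65.7 CPM, a median of 163 and a maximum of 369 in cell 20. The exons of Iars2 share 2148 bases with neighbouring genes, Rab3gap2 among them, so its level is uncertain. The 3 lowest were Mars2, Wars2 and Vars2. Mars2 (methionine) was at 5.83 ± 5.61 CPM per kb, from 0 CPM in 5 cells through 67.2 to 223 in cell 10. Wars2 (ENSMUSG00000004233, chr3:99141068-99239186) was at 3.46 ± 5.55 CPM per kb, from 0 CPM in 11 cells through a median of 1.135 to 104 in cell 4. Vars2 (valine, ENSMUSG00000038838, chr17:35655634-35667592) was at 1.82 ± 2.46 CPM per kb, from 0 CPM in 10 cells through 4.04 to 48.6 in cell 16. For Wars2 and Vars2 a 0 cannot be told from a level of a few CPM at this depth. In all 14 steps of the mitochondrial order, neighbours differed by less than the larger of their SDs.

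Among cells, mitochondrial members varied more than cytosolic ones, with a median coefficient of variation (CV) of 0.962 against 0.550. They were also lower, and other genes of like level varied about as much. All 20 cytosolic members had mean CPM from 100 to 500, where the median CV of 1986 genes was 0.605, and 11 of the 20 lay under it. Of the 9 mitochondrial members from 20 to 100 CPM, 6 lay under the median CV of 1.16 of 4252 genes, and of the 5 from 100 to 500 CPM, 2 lay under 0.605. The steadiest members were Vars (CV 0.381) and Farsa (0.393), and the most variable were Wars2 (1.60) and Nars2 (1.43).

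Summed over each set, cytosolic transcripts outweighed mitochondrial ones in 24 of 24 cells. The cytosolic sum was 1208 ± 293 CPM per kb, from 446 in cell 19 to 1701 in cell 2, and the mitochondrial sum was 236 ± 51.8, from 153 in cell 9 to 383 in cell 4. The ratio had a median of 5.14, from 1.74 in cell 19 to 9.38 in cell 7. Part of this is the number of genes, 20 against 15, and the medians per gene are given above. Without Gars and Kars, whose transcripts serve both compartments, the median ratio was 4.02. Plate columns were read here from the digit in each cell's label, taken as a well position, and are not named as such in the labels. Within plate columns 1, 2 and 3, of 8 cells each, the median ratio was 4.24, 6.15 and 5.52. The 5 cells low in Klf1 had a median ratio of 5.11, against 5.18 in the other 19 cells.

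**Figure D2:**
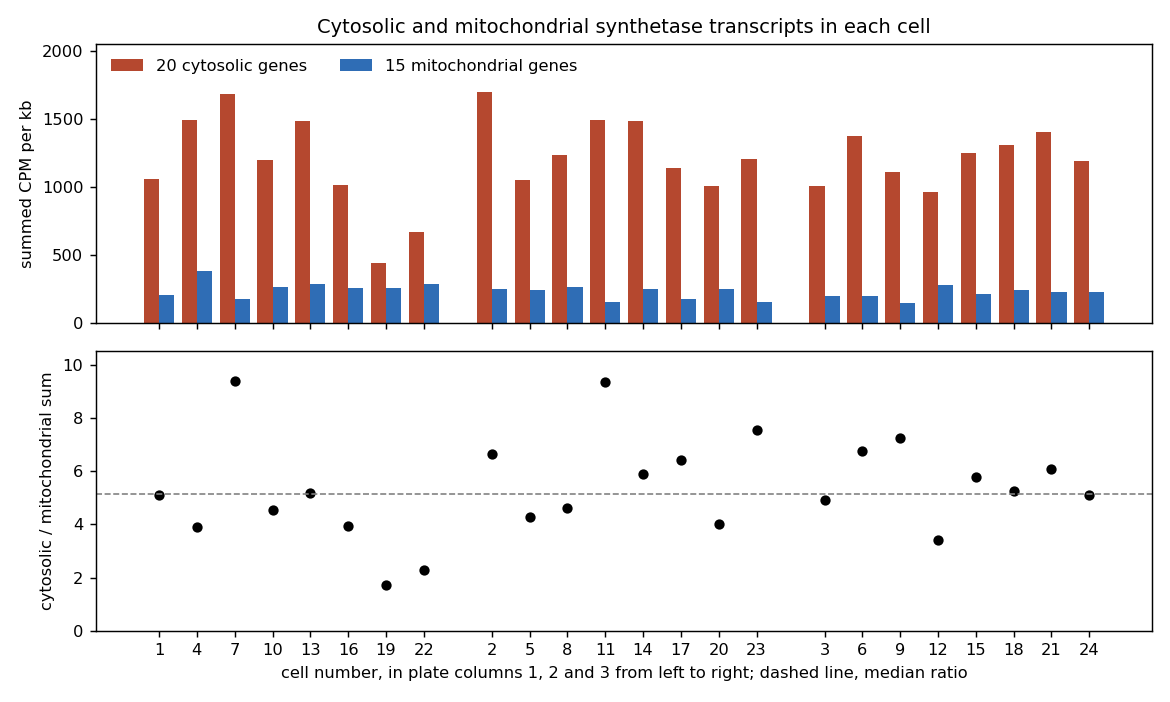
Summed CPM per kb of the 20 cytosolic (red) and 15 mitochondrial (blue) genes in each cell (top), and their ratio (bottom, dashed line at the median of 5.14). Cells are grouped by plate column; cells 19 and 22 in column 1 have the lowest cytosolic sums, 446 and 668.5, while their mitochondrial sums, 256 and 292, lie inside the range of the other cells.

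Cells 19 and 22 stood apart in the cytosolic set. In cell 19, 8 cytosolic members were under 5 counts (Aars, Cars, Farsb, Gars, Mars, Rars, Sars, Tars), against 4 mitochondrial members (Aars2, Iars2, Mars2, Yars2). The leucine enzyme Lars, by contrast, had its highest value of any cell there, 435 CPM, as did Hars2 with 206 and the mitochondrial glutamate enzyme Ears2 with 156. Cell 19 was also the cell without Gata1 counts that held Rag1 (245 CPM) and Il7r (169 CPM), genes of lymphocyte development, and it had 4800 detected genes from 1234038 counts. Cell 22 had 4 cytosolic (Aars, Gars, Mars, Yars) and 10 mitochondrial members under 5 counts, yet its mitochondrial sum was carried by Rars2. It had 392 CPM of Gata1 and 306 of Klf1, 5091 detected genes and 1149972 counts. The part of lineage or depth in these profiles was not tested. Cells 19 and 22 were singled out after their values were seen, and correlations with the set means are given with and without them below.

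For the 15 amino acids with a gene for each compartment, the cytosolic gene was the higher per kb in 14. The gap was widest for valine, where Vars stood at 67.3 and Vars2 at 1.82 CPM per kb, a ratio of 37.1, with Vars higher in 24 of 24 cells. Tryptophan followed (Wars over Wars2, 21.3) and then asparagine (Nars over Nars2, 10.8), both also in 24 of 24 cells. Ratios were 9.77 for Farsb and 7.58 for Farsa over Fars2, 8.54 for methionine, 6.10 for histidine and 3.21 for glutamate, and cytosolic genes were higher in 21 to 24 cells.

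For the other amino acids the genes lay closer together. The ratio was 2.58 for isoleucine, 1.71 for arginine, 1.65 for leucine, 1.54 for serine, 1.52 for alanine, 1.37 for cysteine and 1.25 for threonine, and the cytosolic gene was higher in 15 to 20 cells. Tyrosine had the smallest ratio, 0.816, with Yars at 34.0 and Yars2 at 41.6 CPM per kb. Yars was detected in 23 cells, from 1.74 CPM in cell 22 through 190 to 482 in cell 24, and was above Yars2 per kb in 8 cells. Some of these gaps changed side with the length used. By longest transcript the ratio for tyrosine was 1.48, while those for leucine and threonine fell to 0.780 and 0.939 and that for glutamate rose to 9.79, so 13 of 15 were then above 1.

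**Figure D3:**
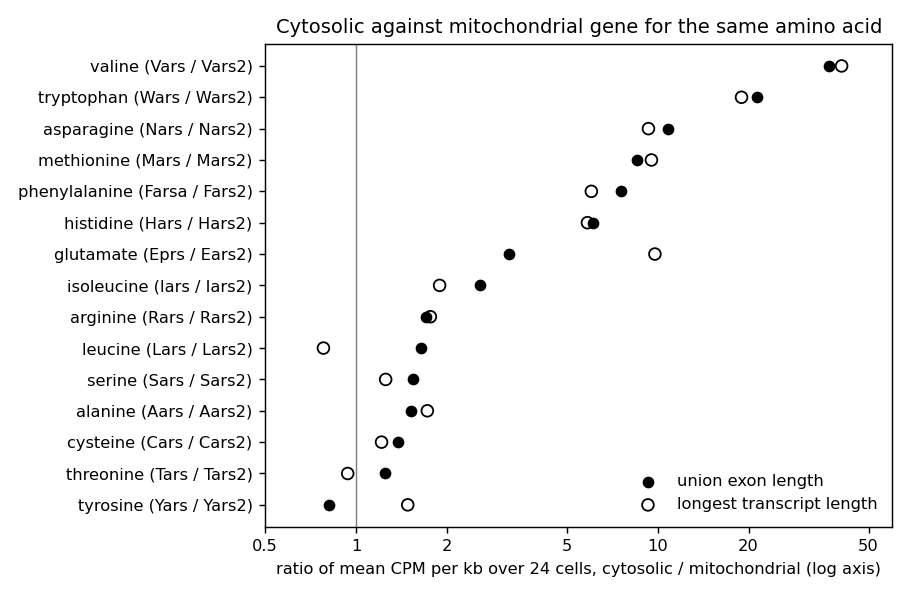
Ratio of the mean CPM per kb of the cytosolic gene to that of the mitochondrial gene for the same amino acid, over 24 cells, on a log axis, by merged exon length (filled) and by longest transcript (open); Farsa stands for phenylalanine. Valine and tryptophan have the widest gaps under both lengths, glutamate moves from 3.21 to 9.79, and leucine, threonine and tyrosine change side of the line at 1.

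Co-variation across cells was low on average in each set and highest among the cytosolic members. The mean Spearman rho of log2(CPM + 1) over 24 cells was 0.133 in 190 cytosolic pairs, 0.013 in 91 mitochondrial pairs (Wars2 left out) and 0.018 in 280 pairs between the sets, against 0.0089 over 17769741 pairs of all genes detected in at least 12 cells. A rho of at least 0.4 was reached by 18 cytosolic pairs (9.47%), 2 mitochondrial pairs (2.20%) and 11 pairs between the sets (3.93%), against 3.54% of all gene pairs. A rho of −0.4 or less was found in 1, 4 and 5 pairs, against 2.96% of all. The pairs share cells and sequencing depth, and these values describe the 24 cells only.

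The cytosolic co-variation rested in part on a few cells. Without cells 19 and 22 the mean rho fell to 0.057, with 0.017 in mitochondrial pairs and 0.0067 between the sets. It was 0.303 in plate column 1, which holds both cells, 0.087 in column 2 and 0.020 in column 3. With total counts and detected genes regressed out it was 0.143. Pairs within the multisynthetase complex had a mean of 0.143 and a median of 0.093 (28 pairs), and other cytosolic pairs a mean of 0.131 and a median of 0.15 (162 pairs). A rho of at least 0.4 was reached by 14.3% of the former and 8.64% of the latter, and the difference was not tested. Mars had the highest mean rho with the cytosolic set, 0.29, then Eprs with 0.26 and Rars with 0.24, while Qars (−0.07) and Lars (−0.04) did not follow the set. Of the mitochondrial members, Tars2 was closest to it, with 0.22.

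**Figure D4:**
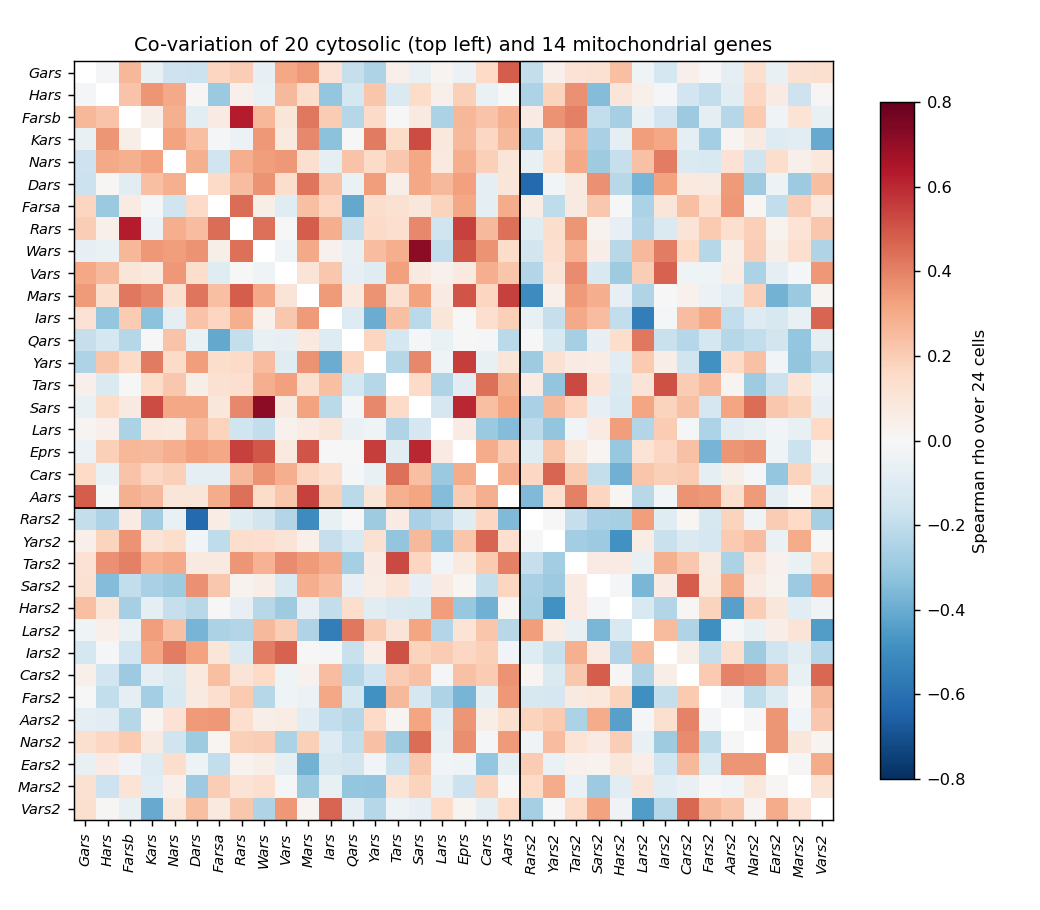
Spearman rho over 24 cells for each pair of the 20 cytosolic and 14 mitochondrial genes detected in at least 12 cells, with black lines between the sets. Red is positive and blue negative; the cytosolic block has more red (mean rho 0.133) than the mitochondrial block (0.013) or the blocks between them (0.018).

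Among pairs of members, 4 reached an absolute rho of 0.6. The share of all gene pairs at this threshold was not computed, so the count cannot be compared with other genes and the pairs are only described. Sars and Wars, the serine and tryptophan enzymes, had a rho of 0.71, and 0.68 to 0.76 with any single cell left out. Both were high in cells 2 (410 and 568 CPM) and 4 (387 and 520 CPM) and low in cell 19 (0.810 and 18.6 CPM), and the rho was 0.83, 0.62 and 0.62 within columns 1 to 3. Farsb and Rars had a rho of 0.63 (0.64 without cells 19 and 22), both high in cell 13 at 616 and 526 CPM. Rars ran from 0.810 CPM in cell 19 through 220 to 562 in cell 21. Eprs and Sars had a rho of 0.60, and 0.53 without cells 19 and 22. Dars and Rars2 went opposite ways, with a rho of −0.62, or −0.57 without those cells, and between −0.40 and −0.57 within columns. Cell 2 had the highest Dars (784 CPM) beside 24.3 CPM of Rars2, and cell 22 the highest Rars2 (487 CPM) beside 134 CPM of Dars.

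Genes for the same amino acid in the 2 compartments did not track each other in general. Tars and Tars2 had the highest rho, 0.53, but a Pearson r of 0.07, and −0.10, 0.81 and 0.86 within columns. The others ran from −0.30 for methionine to 0.35 for valine. The mean level of the mitochondrial set had a rho of 0.21 with that of the cytosolic set, or 0.088 without cells 19 and 22, and 0.24, 0.48 and 0.05 within columns 1 to 3.

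Myc, a growth regulator known to raise genes of ribosomes and translation, had a higher rho with the cytosolic set over the 24 cells than Atf4 had. It was detected in 24 cells at 845 ± 447 CPM, from 76.4 in cell 23 through 822 to 1755 in cell 3. Its rho with the mean log2(CPM + 1) of the cytosolic members was 0.66 (Pearson r 0.70), and 0.61 to 0.78 with any single cell left out. Of 5928 genes outside the family, Myc among them, 25 (0.422%, again with Myc) had a rho at least as high, and the median gene had 0.07. Without cells 19 and 22 the rho was 0.56, and within columns 1 to 3 it was 0.88, 0.76 and 0.26. Detected genes had a rho of 0.57 with the cytosolic mean and total counts 0.32, or 0.45 and 0.155 without cells 19 and 22, and with both regressed out the rho with Myc was 0.55. Mars (rho 0.57) and Farsa (0.55) had the highest values with Myc among the members, or 0.46 and 0.43 without those cells. With the mitochondrial mean Myc had a rho of 0.18, or 0.053 without those cells.

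**Figure D5:**
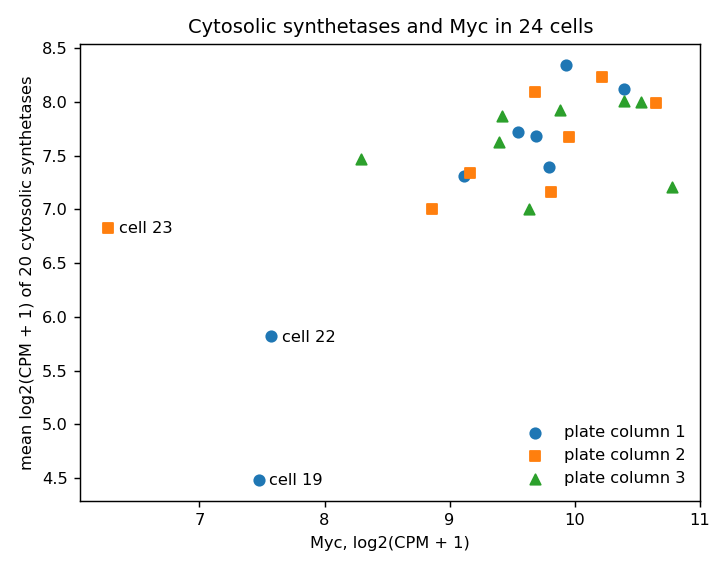
Mean log2(CPM + 1) of the 20 cytosolic synthetases against Myc, log2(CPM + 1), in 24 cells, with markers by plate column. Cells 19, 22 and 23, labelled, have the lowest values of both; the rho over all cells is 0.66, and 0.26 within column 3.

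The messenger of Atf4 gave rho values of other sign and size. It was detected in 23 cells at 138 ± 90.6 CPM, from 1.74 in cell 22 through 130 to 317 in cell 23, and its rho was −0.002 with the cytosolic mean and −0.26 with the mitochondrial mean, or −0.135 and −0.43 without cells 19 and 22. Within columns the cytosolic value changed sign, at 0.52, −0.79 and 0.36. ATF4 is controlled mainly at translation, so its messenger level is no measure of the protein. Of the 5 cytosolic genes whose promoters hold the ATF4 letters shown above, the rho with Atf4 was 0.24 for Yars, 0.03 for Gars, −0.01 for Aars, −0.09 for Iars and −0.34 for Tars. Without cells 19 and 22 these were 0.14, −0.10, −0.14, −0.08 and −0.44, so the value for Gars changed sign.

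The listed ATF4 targets of amino acid metabolism had a rho of 0.53 between their mean and the cytosolic mean, and 0.40 with the mitochondrial mean, or 0.41 and 0.29 without cells 19 and 22. At least 12 cells held 12 of these 17 genes, and the highest were the serine synthesis and one-carbon genes Phgdh (633 ± 205 CPM), Shmt2 (446 ± 175) and Psat1 (401 ± 173). Asns, asparagine synthetase, had a rho of 0.60 with the cytosolic mean (0.55 without those cells) and was picked because of that value. It ran from 0 CPM in cell 19 to 864 in cell 4. Chac1 and Trib3, targets known from strong stress, were at 0 in all cells. Among stress sensors and factors the highest were Eif2s1, a subunit of the initiation factor that the sensors phosphorylate (560 ± 215 CPM), Atf4 and the haem-regulated kinase Eif2ak1 (138 ± 108 CPM), and the list's mean had a rho of 0.12 with the cytosolic mean, or −0.030 without cells 19 and 22. Of the MYC list, Mycn (30.7 ± 69.8 CPM) and Mxi1 (28.9 ± 55.3) were each detected in under 12 cells, and the mean of the whole list, Myc included, had a rho of 0.15 with the cytosolic mean, or 0.054 without those cells.

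The partners of the synthetases were present as well. The complex scaffolds were at 161 ± 70.2 CPM (Aimp1), 109 ± 46.5 (Aimp2) and 176 ± 136 (Eef1e1), and their mean had a rho of 0.35 with the cytosolic mean (0.27 without cells 19 and 22). Elongation factor 1, which carries charged tRNA to the ribosome, was led by Eef1a1 (7260 ± 1497 CPM), Eef1b2 (897 ± 234) and Eef1g (848 ± 208). Eef1a1, the tRNA-binding subunit, had a rho of −0.54 with the cytosolic mean, and Eef1d, an exchange subunit noticed after its values were seen, had 0.54, or −0.48 and 0.41 without cells 19 and 22. The mean of the 4 subunits had 0.33, or 0.18. Factors that process or export tRNA were led by Ssb (412 ± 146 CPM), Trnt1 (154 ± 87.6), which adds the CCA end, and Xpot (127 ± 102), with a rho of 0.37, or 0.45 without those cells. Editing factors that clear mischarged tRNA were led by Dtd1 (140 ± 97.3 CPM), Prorsd1 (63.7 ± 52.8) and Ankrd16 (25.9 ± 37.7), with a rho of −0.11, or −0.05.

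On the mitochondrial side, translation factors were led by Tufm (187 ± 93.3 CPM), Gfm1 (134 ± 89.7) and Tsfm (101 ± 80.7). Their mean had a rho of 0.47 with the mitochondrial synthetases and also 0.47 with the cytosolic ones, or 0.50 and 0.39 without cells 19 and 22. Mitochondria make glutaminyl-tRNA with an amidotransferase, and its subunits were low: Gatb (47.7 ± 48.9 CPM) was detected in 17 cells, Gatc (22.2 ± 27.4) in 11 and Qrsl1 (13.9 ± 28.2) in 5.

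Over all genes detected in at least 12 cells, those closest to the cytosolic mean were Ddx21, a helicase of ribosome synthesis (rho 0.81), the chaperone Hsp90aa1 (0.79) and the import channel subunit Timm23 (0.78). The nucleolar protein Ncl had 0.76. The lowest was Srgn, a proteoglycan of secretory granules (−0.75), and the mitochondrially encoded ribosomal RNA mt-Rnr2 had −0.72. Without cells 19 and 22 these 6 values were 0.78, 0.76, 0.72, 0.72, −0.72 and −0.66. These genes were named after their values were seen. Among marker lists of other lineages, the mean of the lymphoid genes had a rho of −0.38 with the cytosolic mean (Pearson r −0.74), or −0.33 without cells 19 and 22. That of the megakaryocyte genes had −0.33, or −0.49 without those cells. Erythroid regulators had 0.31, or 0.21. The part of these lineages in the cytosolic level was not tested.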

How the data were processed

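Raw read counts per gene in 24 cells, 1 column a cell, were used as deposited by the authors. The submitters' processing notes name STAR 2.4, featureCounts and GRCm38; counting options and annotation are not stated there, and libraries were not stranded, per the labels' protocols. Of 49585 identifiers, 49326 matched GENCODE M21, which gave symbols, coordinates and exon lengths. Counts were scaled to CPM by each cell's total over gene rows, then per kb of merged exons. A gene was detected at 5 counts and broadly detected in 12 cells. No 2 columns were identical. Correlations used log2(CPM + 1) and have no p-value. Their code was run on simulated counts with a known shared factor, which does not check the values reported here. A BLAST 2.17.0 search at 95% identity over at least 300 bases found 1 near-identical copy, the Iars pseudogene Gm4849. Exons of 13 members overlap another gene, which leaves their levels uncertain. Python 3.11.15, scipy 1.17.1 and edgeR 4.0.16 (TMM only) were used. The members, the 18 lists and the 5 motifs were chosen with earlier results of these data known. Values in cells are given for the 6 highest and 3 lowest cytosolic and the 4 highest and 3 lowest mitochondrial members, both phenylalanine subunits, both dual-targeted members, members detected in under 12 cells, pairs with an absolute rho of at least 0.6 and the amino acids with extreme ratios. Of each other list the 3 highest are named, plus Atf4 and Myc. Some results that this rule covers are not reported here. Protein sequences were not used here.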

Additional observations from a re-analysis of the deposited data

How the results depend on the processing

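Levels, detection, ratios and co-variation were recomputed with other scalings, lengths, thresholds, member sets and cells, some of which (plate columns for relations, cells 19 and 22 left out) were chosen after seeing the data. No paired analysis was possible because there is 1 group. No rho of at least 0.4 in size between a set's mean level and Myc, detected genes or the mean of a list changed sign. Single pairs could, such as Tars and Tars2 in column 1 (−0.10). Single listed genes other than Myc and Atf4 were not recomputed across these settings. Asns, Eef1a1 and Eef1d were recomputed only without cells 19 and 22, where they kept their sign. Broadly detected mitochondrial members numbered 4 when 20 cells were asked for, and 7 when members with overlapping exons were left out, which also left 5 amino acids with the cytosolic gene higher; fewer genes were then counted. With any single cell left out, the broadly detected members stayed at 20 cytosolic and 14 mitochondrial, 14 amino acids had the cytosolic gene higher, the cytosolic sum was higher in 23 of 23 cells, and the median ratio was 5.11 to 5.18. The mean rho was then 0.096 to 0.143 (cytosolic), 0.0033 to 0.019 (mitochondrial) and 0.00023 to 0.028 (between). Cytosolic co-variation was 0.303 in column 1 and 0.0198 in column 3. The cytosolic mean had a rho with total counts of 0.0719 without cells low in Klf1, −0.238 in column 2 and 0.571 in column 3, with Atf4 of 0.524, −0.786 and 0.357 in columns 1 to 3, and with Myc of 0.881 and 0.262 in columns 1 and 3. The mitochondrial mean had 0.762 and 0.0238 with total counts in columns 1 and 3, −0.116 (without cells low in Klf1) and 0.433 (Pearson r) with Myc, and 0.0444 (Pearson r), 0.0476 (column 1) and −0.833 (column 2) with Atf4. With single cells left out the cytosolic rho was 0.229 to 0.406 with total counts, −0.125 to 0.102 with Atf4 and 0.613 to 0.778 with Myc, and the mitochondrial rho 0.265 to 0.430, −0.434 to −0.193 and 0.0741 to 0.279. Column values rest on 8 cells each, and the cause of these shifts was not tested.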
